A study of Mus musculus with 12 samples.

Results

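The fibroblast growth factor (FGF) ligands and receptors described here are 9 genes taken by name from the 25887 genes measured in sorted dermal papilla cells of mice. They are the 6 ligands Fgf2, Fgf5, Fgf7, Fgf10, Fgf18 and Fgf23 and the 3 receptors Fgfr1, Fgfr2 and Fgfr3. The dermal papilla is the knot of mesenchymal cells enclosed by the bulb of each hair follicle. RNA was sequenced from 12 libraries in 4 groups of 3. At postnatal day (P) 20 the groups were wild type (WT) and Smo* mutant females, all labelled telogen, when the follicle rests. At P28 both groups were male: WT was labelled Anagen VI, the full growth stage, and Smo* was labelled anagen (I-III), the early growth stages. Smo is the transmembrane transducer of Hedgehog signalling, and Smo* is used in the field for an activated form of it. Every library came from primary cells sorted by FACS. The strain, the driver of the Smo* allele, any allele that WT and Smo* animals share, and the number of animals behind a library are not given in the sources used here. The p-values therefore cover only how far these libraries vary, which may be technical variation. Sex changes together with age, and label stage changes together with genotype at P28, so those effects cannot be told apart.

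FGF ligands are secreted proteins that bind receptor tyrosine kinases together with heparan sulfate. The activated receptor recruits adaptor proteins and switches on the ERK pathway, which raises the transcripts of its own inhibitors (Sprouty and Spred proteins) and of ETS factors such as Etv4 and Etv5. In the hair follicle Fgf7 and Fgf10 are made by the papilla and act on the overlying epithelium through an epithelial splice form of Fgfr2, and they help start the growth of a new hair. Fgf18 is known for holding the follicle in its resting stage, Fgf5 for ending growth, and Fgf23 as a hormone of bone that lowers blood phosphate with Klotho (Kl) as coreceptor.

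Start-site sequences of the 4 ligands whose levels differed most between groups are shown first, so that the values can be read beside them. RefSeq entries (build GRCm38.p6) matched 8 of the 9 genes, all but Fgfr1. Each sequence below is the 250 bases before the annotated start, 5′ to 3′ on the strand of the gene, which is the plus strand in all 4. The regions are chr2:126034408-126034657 for Fgf7, chr13:118714449-118714698 for Fgf10, chr5:98253934-98254183 for Fgf5 and chr6:127072652-127072901 for Fgf23, and none of them holds an annotated exon of its gene. The Fgf10 window lies inside the GENCODE gene span, which starts at 118669791. Capitals mark a match to a searched motif.
Fgf7: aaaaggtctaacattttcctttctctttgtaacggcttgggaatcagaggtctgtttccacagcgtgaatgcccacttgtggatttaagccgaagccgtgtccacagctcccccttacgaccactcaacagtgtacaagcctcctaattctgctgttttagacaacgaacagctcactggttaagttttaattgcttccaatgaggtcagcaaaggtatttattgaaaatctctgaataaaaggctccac
Fgf10: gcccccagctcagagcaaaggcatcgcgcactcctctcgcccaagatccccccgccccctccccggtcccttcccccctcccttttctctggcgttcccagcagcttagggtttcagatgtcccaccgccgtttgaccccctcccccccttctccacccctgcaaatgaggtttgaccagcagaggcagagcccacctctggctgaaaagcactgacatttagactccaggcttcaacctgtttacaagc
Fgf5: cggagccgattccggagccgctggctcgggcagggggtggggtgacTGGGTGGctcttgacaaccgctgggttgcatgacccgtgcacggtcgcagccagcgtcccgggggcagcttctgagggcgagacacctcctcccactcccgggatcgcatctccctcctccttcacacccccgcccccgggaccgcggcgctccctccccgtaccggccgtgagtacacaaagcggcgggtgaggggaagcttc
Fgf23: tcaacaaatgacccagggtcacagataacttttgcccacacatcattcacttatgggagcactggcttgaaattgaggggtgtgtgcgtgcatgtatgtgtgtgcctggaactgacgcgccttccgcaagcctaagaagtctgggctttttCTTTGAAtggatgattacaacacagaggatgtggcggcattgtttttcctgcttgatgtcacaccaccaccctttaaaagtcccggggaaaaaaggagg
The motifs were picked after the sequences had been seen and were searched on both strands: CCACCCA, a core of the sites bound by GLI factors of the Hedgehog pathway, CTTTGAA and CTTTGAT, forms of the TCF/LEF site, and TATAAA. No window shown held more than 1 match, so no matches overlap. The Fgf5 window held CCACCCA on the opposite strand, printed as TGGGTGG, 204 bases before the start, and 8.11% of 32841 RefSeq promoters hold that motif. CTTTGAA stood 99 bases before the start of Fgf23, a motif that 4.45% of the promoters hold. The Fgf7 and Fgf10 windows held neither those letters nor CTTTGAT (in 3.21% of promoters) or TATAAA (in 12.4%). GC content was 43.6% in the Fgf7 window, 48.4% in that of Fgf23, 61.2% in that of Fgf10 and 70.8% in that of Fgf5, against a median of 52.4% over all windows. These matches are descriptions of the letters and say nothing of binding.

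Each library held between 36323058 and 48926831 reads on genes. Values are the deposited normalized counts, in which 1 size factor scales each library, and replicate numbers only name the libraries. All tests on genes are limma with Benjamini-Hochberg adjustment over all genes with a mean of at least 10, called at an adjusted p under 0.05, and log2 fold changes are on the log2(value + 1) scale. Smo RNA itself did not pass the test in Smo* libraries at P20 (log2 fold change 0.47, adjusted p = 0.111) or at P28 (0.46, adjusted p = 0.0502), with all 3 Smo* values above all 3 WT values at both ages. The authors' deposited table calls Smo at P20 (adjusted p = 0.00325), and at P28 Smo was called in 5 of 14 alternative settings, the authors' p (0.000994) and the fit without P28 Smo* replicate 3 (0.0481) among them. The Hedgehog targets Gli1 and Ptch1 were higher in Smo* at P20 (1.63 and 2.87) and at P28 (1.52 and 1.51), while Hhip was higher at P20 (3.53) but not called at P28 (-0.73, and 0.0024 with an adjusted p of 0.996 without P28 Smo* replicate 3). At P20 the Gli1 call was lost by edgeR (adjusted p = 0.0549) and by limma with a minimum mean of 50 (0.0523). It was also lost without any 1 library other than P20 WT replicate 3 (0.0789 to 0.144). The P20 Ptch1 call was lost without P20 WT replicate 2 (0.0700) or P20 Smo* replicate 2 (0.0763). At P28 the Ptch1 call was lost without any 1 of the WT libraries (0.0529 to 0.0653). All 13 papilla markers were measured above the filter in each comparison. Their summed level was 33602 to 39690 in P20 WT, 42542 to 57075 in P20 Smo* and 278706 to 335958 in P28 WT. In P28 Smo* it was 131475, 199427 and 37948 in replicates 1 to 3. Most of each of those 3 sums was Vcan, at 96288, 142994 and 22655, against 104114, 141809 and 133244 in P28 WT. Corin read 4148, 7856 and 751 in P28 Smo*, against 69681 to 79819 in P28 WT. Rspo4 read 635, 2136 and 393, against 35498 to 39795. Of the 13, 6 were called lower and 1 higher in P28 Smo*, so the sum does not describe each marker. Replicate 3 of P28 Smo* stands apart: 15453 genes had a read in it, against 17337 to 17926 in the other 11 libraries. Its 6 adipocyte markers summed to 5556, against 387 to 2723 in the other 11, with Adipoq at 1018 and Plin1 at 1544, and the part of these markers in the values of that library was not tested. In bulk RNA, fewer cells of a type and less RNA per cell cannot be told apart.

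Fgf7, the keratinocyte growth factor, rose with the growth stage in WT and was lower in P28 Smo* without passing the main test. Its levels in P20 WT were 2169, 1245 and 1120. Those in P28 WT were 12151, 12831 and 16385, so every anagen WT library was above every telogen WT library. The P28 over P20 difference in WT was a log2 fold change of 3.24 (SE 0.53, 95% interval 2.09 to 4.39, limma adjusted p = 0.00100). P20 Smo* libraries read 1424, 1042 and 938, which overlaps P20 WT (log2 fold change -0.37, adjusted p = 0.648). In P28 Smo* the values were 4219, 6789 and 984. All 3 lay below all P28 WT libraries, and replicate 3 lay within the range of the resting groups. The P28 Smo* against WT difference was -2.17 (SE 0.61, 95% interval -3.56 to -0.77), with an adjusted p of 0.0656. Leaving out P28 Smo* replicate 3 gave -1.35 with an adjusted p of 0.00778, and leaving out P28 Smo* replicate 2 gave -2.75 with 0.0232. The authors' deposited table, made by a method other than limma, gives 1.35 (WT over Smo*) for Fgf7 with an adjusted p of 0.0109. The sizes from the 2 methods are not compared. By group mean the order was P28 WT, P28 Smo*, P20 WT and P20 Smo*, and each neighbouring pair after the first overlapped.

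Fgf10, the other papilla ligand of the epithelial Fgfr2 form, had its group means in the same order as Fgf7. P20 WT read 4049, 2219 and 2261, and P28 WT read 15324, 15366 and 22849. The groups did not overlap, and the difference was 2.68 on the log2 scale (SE 0.58, adjusted p = 0.00527). Smo* libraries at P20 read 1271, 1619 and 1515, all below P20 WT. That P20 difference of -0.90 (SE 0.23, 95% interval -1.43 to -0.38) did not pass after adjustment (limma adjusted p = 0.162). At P28 the Smo* libraries read 3440, 6777 and 757, all below P28 WT, and replicate 3 was the lowest of the 12 libraries. Fgf10 fell by 2.75 on the log2 scale in P28 Smo* (SE 0.68, limma adjusted p = 0.0438). Without P28 Smo* replicate 3 the value was -1.86 with an adjusted p of 0.00667. The call ended without P28 WT replicate 1 (adjusted p = 0.0951), 2 (0.127) or 3 (0.148), without P28 Smo* replicate 1 (0.0797), and by edgeR on the recovered reads (-2.28, adjusted p = 0.0680).

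In Smo* alone neither papilla ligand passed the test between the ages. Fgf7 was 1.45 higher at P28 on the log2 scale (SE 0.53, limma adjusted p = 0.133) and Fgf10 was 0.83 higher (SE 0.58, adjusted p = 0.414). Both depend on 1 library: without P28 Smo* replicate 3 Fgf7 rose by 2.26 (adjusted p = 0.000832) and Fgf10 by 1.72 (adjusted p = 0.00799). Among the Smo* libraries the papilla marker sum was lowest in that same one, and the part of the marker difference in these results was not tested. The interaction term, which tests whether the Smo* effect differs between the ages, was -1.79 for Fgf7 (SE 0.75, adjusted p = 0.187) and -1.85 for Fgf10 (SE 0.81, adjusted p = 0.210). Without P28 Smo* replicate 3 the terms were -0.98 (adjusted p = 0.173) and -0.96 (adjusted p = 0.216). Without P28 Smo* replicate 2 the Fgf10 term was -2.54 with an adjusted p of 0.0437.

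**Figure D1:**
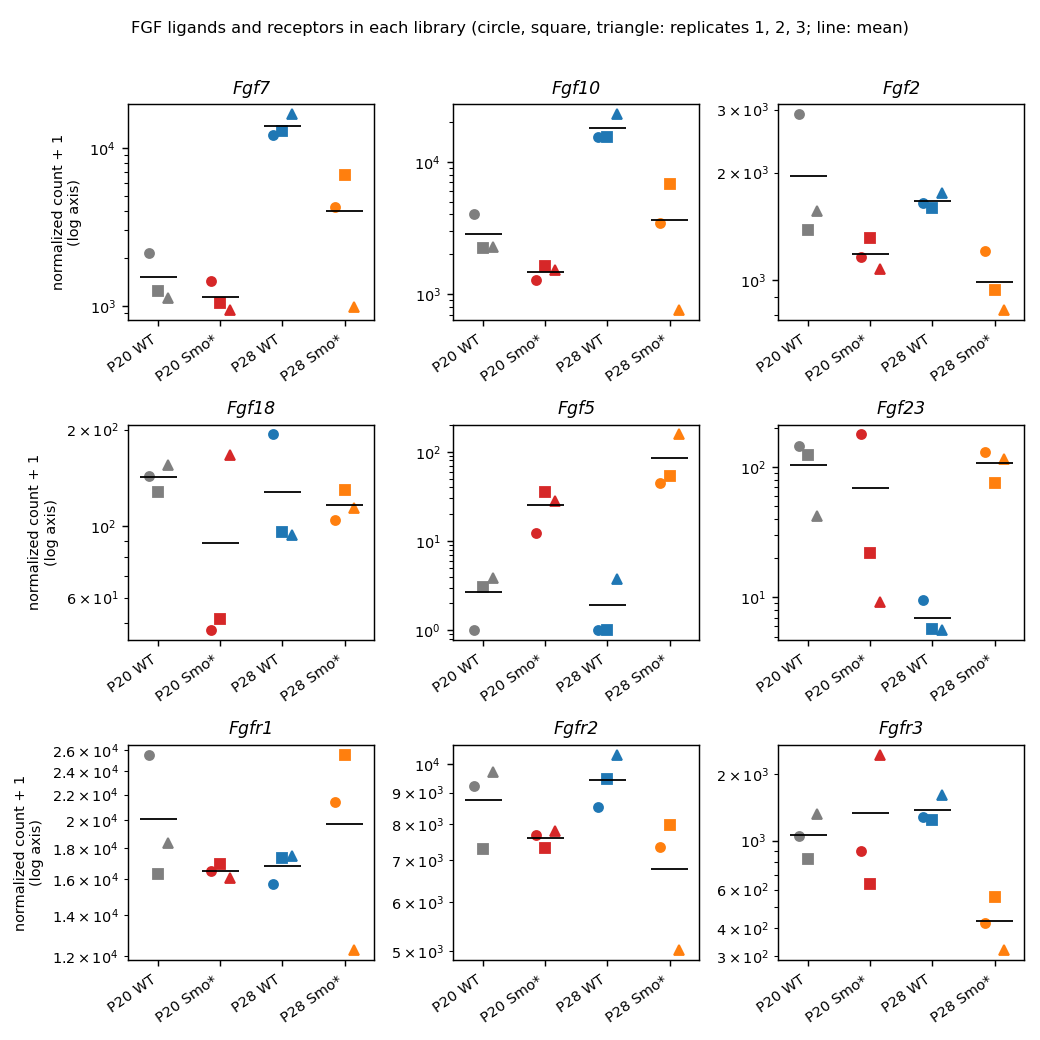
Normalized count plus 1 on a log axis for each of the 9 genes in the 12 libraries, by group; circles, squares and triangles are replicates 1, 2 and 3 and lines are group means. The 3 P28 WT libraries lie above all others for Fgf7 and Fgf10, and replicate 3 of P28 Smo* (triangle) is at 984 and 757.

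Fgf5, the ligand known for ending hair growth, had at most 3 reads in any WT library and at least 11 in every Smo* library. P20 WT libraries held 0, 2 and 3 reads and P28 WT libraries held 0, 0 and 3 reads. Smo* libraries held 11, 39 and 30 reads at P20 and 40, 56 and 145 reads at P28. Every Smo* library therefore exceeded every WT library of its age. Fgf5 passed the filter on low values only through the Smo* libraries, so its tests had a difference built in. Summed over libraries and scaled for depth, the Smo* to WT ratio was 14.4 at P20 (80 against 5 reads, 95% interval 5.91 to 45.4) and 86.0 at P28 (241 against 3 reads, 29.1 to 420), intervals that cover counting error only. At P28 the difference passed limma (log2 fold change 5.54, SE 0.88, adjusted p = 0.00889), and it was 4.99 without replicate 3 of P28 Smo* (adjusted p = 0.0139). At P20 it did not (3.33, SE 0.78, adjusted p = 0.128), although the authors' deposited table has an adjusted p of 0.00517 for Fgf5 at that age. The 2 Smo* groups did not overlap, but their difference was not called (1.65, SE 0.83, adjusted p = 0.260), and neither was the interaction (2.21, SE 1.18, adjusted p = 0.299). The highest level, 155, was in P28 Smo* replicate 3, whose papilla marker sum (37948) was the lowest among the Smo* libraries. P20 WT replicates 2 and 3 had lower sums (37297 and 33602) and held 2 and 3 Fgf5 reads. The part of the marker differences was not tested.

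Fgf23, the phosphate hormone, had low levels that fell between the ages in WT and were higher in Smo* at P28. Telogen WT libraries read 144, 122 and 41.4, and anagen WT libraries read 8.53, 4.75 and 4.60 (10, 4 and 5 reads). In WT, Fgf23 fell by 3.75 on the log2 scale (SE 0.86, limma adjusted p = 0.00732), with no overlap between the ages. P28 Smo* libraries read 129, 74.9 and 114, all above P28 WT. That difference was 3.95 (SE 0.48, 95% interval 2.85 to 5.06, adjusted p = 0.00262). The P28 WT mean of 5.96 is under the filter minimum of 10, so in the P28 fit Fgf23 passed only through the Smo* libraries and a difference was built in. P20 Smo* libraries were spread from 177 through 20.9 to 8.21 and overlapped P20 WT (-1.46, SE 0.99, adjusted p = 0.638, and -0.54 without P20 Smo* replicate 3). The Smo* effect at P28 exceeded that at P20 by 5.42 (SE 1.21, adjusted p = 0.0277), and Fgf23 was the 1 gene of the 9 called in the interaction, where 4.72% of 14790 genes were called (1.89% higher and 2.83% lower). By edgeR the term was 4.67 with an adjusted p of 0.0614. The call also ended without P20 WT replicate 1 (0.0589) or 2 (0.0725), P20 Smo* replicate 2 (0.0640), P28 WT replicate 2 (0.0683) or 3 (0.0758), or P28 Smo* replicate 1 (0.0622). Between the ages in Smo* the gene was not called (1.66, adjusted p = 0.270), except without P20 Smo* replicate 1 (2.88, adjusted p = 0.0470). Its coreceptor Kl was low, at 6.24 to 16.6 in the WT libraries and 0 to 40.8 in the Smo* libraries.

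Fgf2, basic FGF, a broadly expressed growth factor of mesenchymal cells, was moderately lower in Smo* at P28 and was not called at P20. P28 WT read 1648, 1594 and 1751, and P28 Smo* read 1206, 940 and 825. The groups did not overlap, and Fgf2 fell by 0.77 on the log2 scale (SE 0.16, limma adjusted p = 0.0218). The call ended without P28 WT replicate 1 (adjusted p = 0.0664), 2 (0.0754) or 3 (0.0983) or P28 Smo* replicate 2 (0.0546). At P20 the WT libraries read 2912, 1381 and 1556 and the Smo* libraries 1158, 1313 and 1076, again without overlap. That difference of -0.64 (SE 0.26) had an adjusted p of 0.392, and it was -0.32 without P20 WT replicate 1. Dermal fibroblast markers were lower in the same P20 Smo* libraries, where Fgf10 was also lower: the 11 summed to 283831 to 311248 against 373095 to 389267 in P20 WT, and 7 of the 11 did not overlap between the groups, against 16.4% of all genes. Of the 11, 1 was called lower at P20 (Dpt, -0.80, adjusted p = 0.0184), against 0.212% of all genes, and the part of these markers was not tested. In WT the level did not pass the test between the ages (-0.15, SE 0.23, adjusted p = 0.687). Nudt6, on the opposite strand, shares 640 bases or 9.44% of the Fgf2 exons. No source used here states strand-aware counting, so some reads may belong to it.

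Fgf18, the ligand tied to the resting stage, passed no test between groups. Its levels were 142, 127 and 154 in P20 WT, 46.5, 50.5 and 166 in P20 Smo*, 93.0 to 192 in P28 WT with replicate 1 the highest, and 104, 129 and 113 in P28 Smo*. All neighbouring groups overlapped. The P20 Smo* difference was -0.93 (SE 0.45, limma adjusted p = 0.498), and 1 library set it: without P20 Smo* replicate 3 the value was -1.52 and the adjusted p 0.0441. The WT difference between the ages was -0.24 (SE 0.43, 95% interval -1.17 to 0.70, adjusted p = 0.733).

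Among the receptors, Fgfr3 was lower in P28 Smo*. Its levels were 1282, 1234 and 1602 in P28 WT and 423, 553 and 317 in P28 Smo*. The groups lay apart, and Fgfr3 fell by 1.70 on the log2 scale (SE 0.22, 95% interval -2.19 to -1.20, limma adjusted p = 0.00307). Without replicate 3 of P28 Smo* the value was -1.49 (adjusted p = 0.00151). At P20 the WT libraries read 1045, 826 and 1322 and the Smo* libraries 901, 638 and 2451. That difference was 0.10 (SE 0.44, adjusted p = 0.959), and its sign turned without P20 WT replicate 2 (-0.07) or P20 Smo* replicate 3 (-0.46). The interaction was -1.80 (SE 0.55) with an adjusted p of 0.0835, and 0.0397 without P20 Smo* replicate 2. Between the ages in Smo* all 3 P28 libraries were below all 3 P20 libraries, and the difference was -1.41 (SE 0.39, adjusted p = 0.0637). EdgeR called it (-1.63, adjusted p = 0.0457), as did limma without P20 Smo* replicate 2 (-1.82, adjusted p = 0.0379). An annotated transcript on the opposite strand that is not in the tables covers 13.9% of the Fgfr3 exons.

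Fgfr1 and Fgfr2, the most abundant receptors here, passed none of the tests. Fgfr1 read 25514, 16314 and 18316 in P20 WT, 16473, 16956 and 16086 in P20 Smo*, 15713, 17324 and 17435 in P28 WT and 21389, 25551 and 12240 in P28 Smo*. The P28 Smo* group held both the highest and the lowest Fgfr1 library of the 12, the lowest being replicate 3. Its P28 difference was 0.17 (SE 0.26, 95% interval -0.42 to 0.75, limma adjusted p = 0.719). Fgfr2 ranged from 7306 to 9734 in P20 WT, 7340 to 7819 in P20 Smo* and 8519 to 10360 in P28 WT. P28 Smo* read 7348, 7985 and 5012, all below P28 WT. That Fgfr2 difference was -0.50 (SE 0.19, 95% interval -0.93 to -0.07), with an adjusted p of 0.135, and it was -0.30 (adjusted p = 0.206) without replicate 3. Gene counts do not separate the epithelial and mesenchymal splice forms of these receptors, and 3.04% of the Fgfr2 exon bases are shared with Ctbp2.

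Counted over the set, P20 Smo* against WT called 0 of the 9 genes by limma, where 0.696% of 14645 genes were called. Unadjusted, 3 of the 9 had p under 0.05, where 1669 of all 14645 genes did, and edgeR called 0. Groups did not overlap for 3 (Fgf2 and Fgf10 lower, Fgf5 higher), against 16.4% of all genes. Fgf5 is in both counts of 3 and passed the filter only through the Smo* libraries, so nothing is read from its part. At P28 limma called 5, where 8.9% of 14757 genes were called. Fgf5 and Fgf23 were higher (background 4.05%), both of which passed the filter only through the Smo* libraries, so nothing is read from that count, and Fgf2, Fgf10 and Fgfr3 lower (background 4.85%). EdgeR called 4 at P28, and the groups did not overlap for 7 of the 9, against 33.4% of all genes. Fgf5 and Fgf23 are in both of these counts and in the limma count of 5. A difference was thus built into each count, and nothing is read from their size. The median log2 fold change at P28 was -0.50 over the 9 genes and -0.01 over all genes. Between the ages in WT, 2 rose (Fgf7 and Fgf10) and 1 fell (Fgf23), where 25.4% of 14790 genes were called (13.5% higher and 11.9% lower), and these 3 were also the ones without overlap, against 45.1%. Each of those WT calls was kept in all 18 alternative settings. Between the ages in Smo* limma called 0, where 3.46% were called (1.98% higher and 1.47% lower). In that comparison 2 of the 9 had p under 0.05 before adjustment (Fgf7 and Fgfr3), where 3368 of all 14790 genes did. That count is near the share over all genes, and nothing is read from it. EdgeR called 1 there (Fgfr3), and 2 did not overlap (Fgf5 higher, Fgfr3 lower), against 24.4%. The P20 and P28 genotype comparisons use different libraries, whereas each stage comparison shares its libraries with them.

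**Figure D2:**
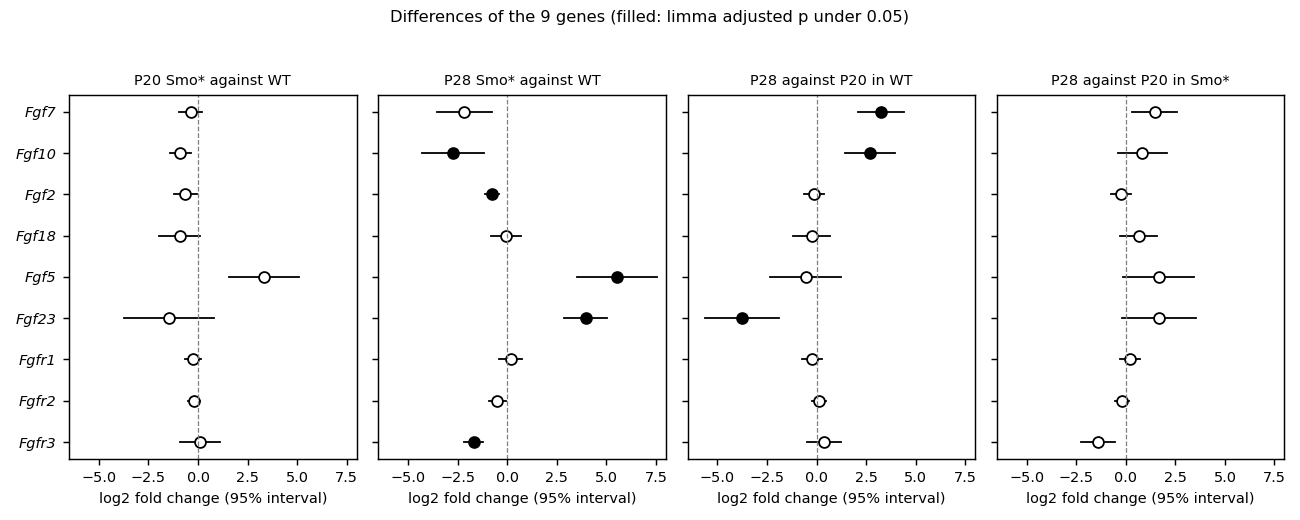
Log2 fold change with its 95% interval for the 9 genes in 4 comparisons, filled where limma's adjusted p is under 0.05. No gene is filled for P20 Smo* against WT, 5 are filled at P28, and Fgf7, Fgf10 and Fgf23 are filled between the ages in WT.

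To compare genes with each other, levels were divided by the length of their merged exons and given as a share of the 6 ligands or 3 receptors. Fgf7 and Fgf10 made up most of the ligand level in WT: 29.9% ± 1.43 and 39.8% ± 0.926 (SD, n = 3) at P20, and 50.2% ± 1.61 and 45.5% ± 2.20 at P28. In P28 Smo* their shares were 48.5% ± 9.60 and 29.8% ± 8.93. Fgf2 held 18.3% ± 1.74 in P20 WT, 2.94% ± 0.397 in P28 WT and 8.67% ± 5.82 in P28 Smo*. Replicate 3 of P28 Smo* was unlike the other 2 of its group, with Fgf2 at 15.0% and Fgf5 at 7.66% of its ligand level. Fgfr1 was the leading receptor in every library, at 66.8% ± 4.55 in P20 WT, 64.5% ± 4.38 in P20 Smo*, 60.7% ± 1.47 in P28 WT and 73.0% ± 2.67 in P28 Smo*. The Fgfr3 share was 6.82% ± 0.711 in P28 WT and 2.25% ± 0.244 in P28 Smo*. Shares are relative, so a share can move without a change in that gene's own level, and no test was run on them.

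**Figure D3:**
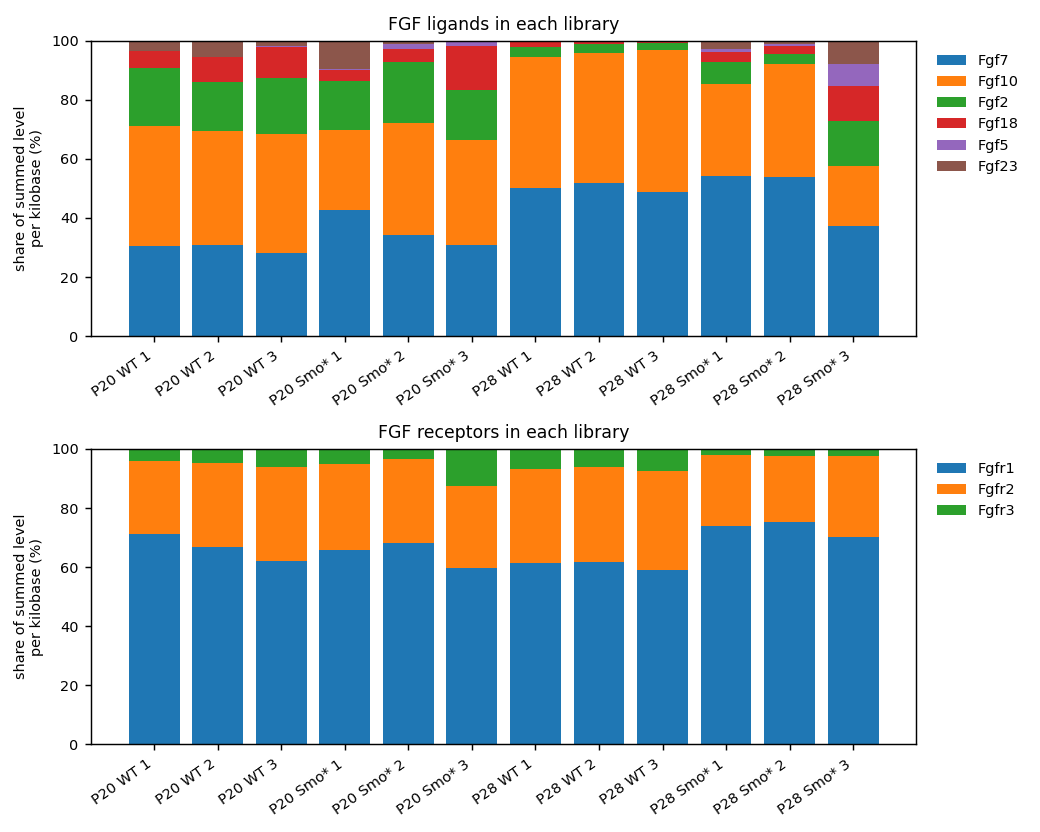
Stacked bars give each gene's share (percent) of the summed level per kilobase of exon, for the ligands (top) and receptors (bottom), in each of the 12 libraries. Fgf7 fills 48.7% to 51.9% and Fgf10 43.9% to 48.0% of the ligand bar in the P28 WT libraries, and Fgfr1 fills 59.0% to 75.3% of the receptor bars.

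Several transcripts that FGF and ERK signalling raises fell in P28 Smo* and rose between the ages in WT. Of the 11 listed targets and feedback inhibitors, all of which were tested, 5 fell and 0 rose in P28 Smo* against WT, with a median log2 fold change of -1.32, against 4.85% lower and 4.05% higher over all genes. Spry1, a Sprouty inhibitor, read 12636, 15461 and 14028 in P28 WT and 2771, 2102 and 2125 in P28 Smo*. It fell by 2.60 on the log2 scale (SE 0.15, limma adjusted p = 0.000106). Spry4 fell by 2.38 (SE 0.23, adjusted p = 0.000960), and the ETS factors Etv1 and Etv5 fell by 2.12 (SE 0.19, adjusted p = 0.000650) and 1.77 (SE 0.21, adjusted p = 0.00253). These 4 calls were kept in all 14 alternative settings, the 1 without P28 Smo* replicate 3 included. The fifth was Spred3, a Spred inhibitor (-1.32, adjusted p = 0.0182).

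In WT, 4 of the 11 rose and 0 fell from P20 to P28, against 13.5% higher and 11.9% lower over all genes: Spry1 by 2.12 (SE 0.16), Spry4 by 1.67 (SE 0.22), Etv5 by 1.48 (SE 0.27) and Spred3 by 1.05 (SE 0.25), with limma adjusted p of 5.98e-06, 0.000240, 0.00230 and 0.00835. At P20 limma and edgeR each called 0 of the 11 between Smo* and WT, where limma called 0.696% of all genes. Before adjustment 2 of the 11 had a limma p under 0.05, where 1669 of all 14645 genes did. Between the ages in Smo* both tools called 0, where limma called 3.46% of all genes. Unadjusted, 5 of the 11 were at that level there, where 3368 of all 14790 genes were. The limma interaction called 4 of the 11, all with a lower Smo* effect at P28, against 2.83% lower over all genes. They were Spry1 (-2.39, adjusted p = 0.000224), Spry4 (-2.09, adjusted p = 0.00318), Spred3 (-1.77, adjusted p = 0.0158) and Etv5 (-1.73, adjusted p = 0.0277). The Etv5 term lost its call without P20 WT replicate 2 (0.0689) or 3 (0.0606), P20 Smo* replicate 3 (0.0564), P28 WT replicate 2 (0.0654) or 3 (0.0817), or P28 Smo* replicate 1 (0.0561). Dusp6, an ERK phosphatase, and Egr1, an immediate early gene, were not called in any comparison. These targets also respond to other receptor tyrosine kinases.

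**Figure D4:**
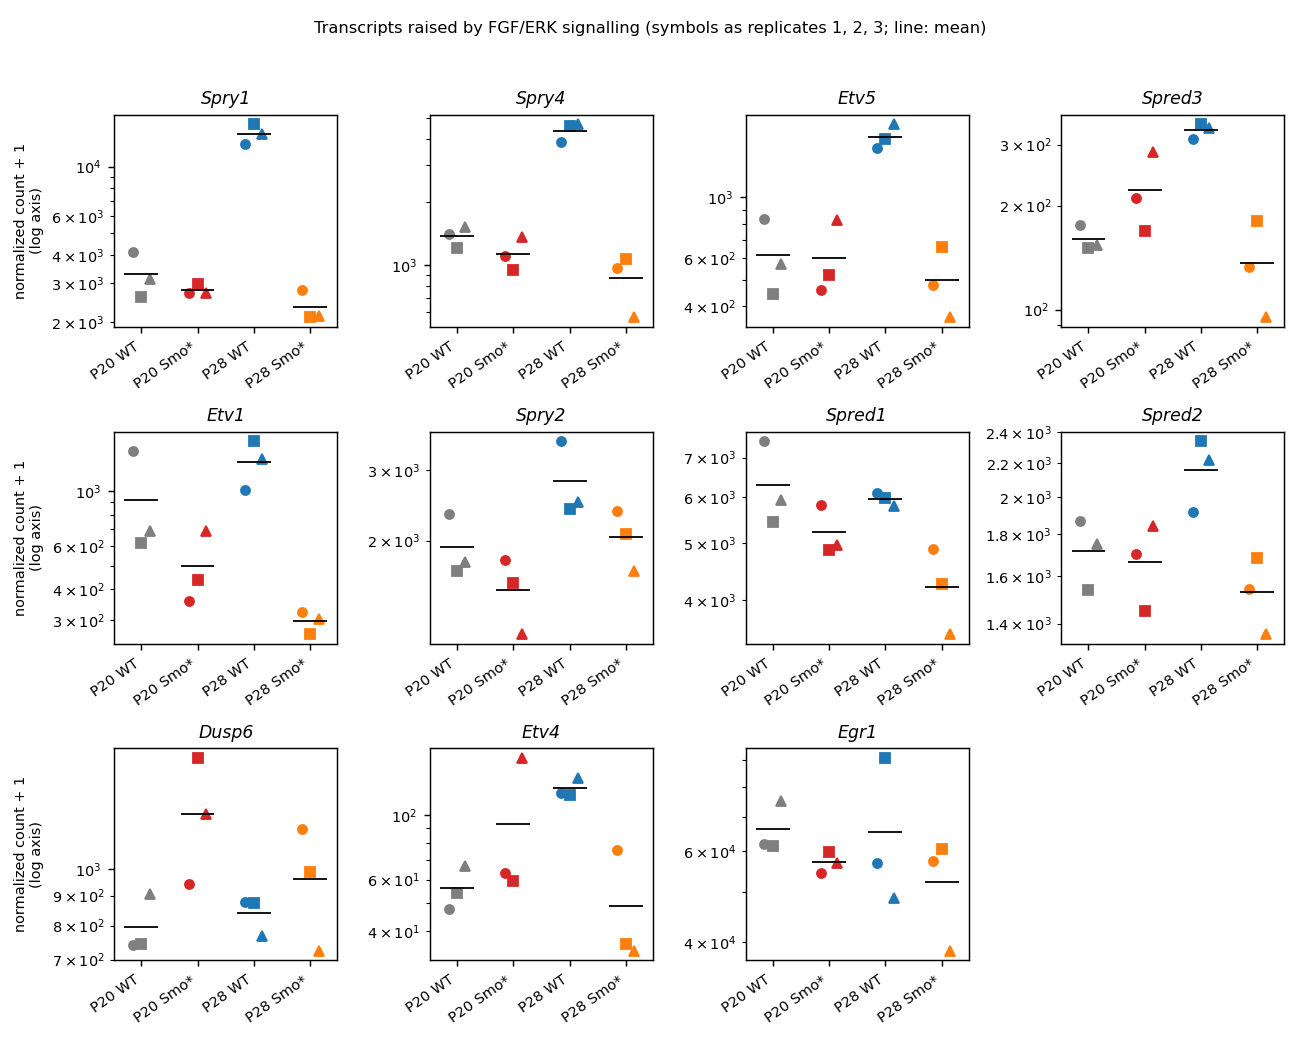
Normalized count plus 1 on a log axis for all 11 listed FGF and ERK target transcripts in the 12 libraries, by group, with lines at group means. Spry1, Spry4, Etv5 and Spred3 are highest in the 3 P28 WT libraries, and Spry1 lies between 2102 and 2771 in P28 Smo*.

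Markers of other cells moved with some of these comparisons. Of 8 endothelial markers, 3 rose in P28 Smo* (Cdh5, Vwf and Pecam1), against 4.05% of all genes, and their summed level was 3517 to 6059 in P28 Smo* against 1664 to 3270 in P28 WT. Papilla markers fell there in 6 of 13 genes, against 4.85% of all genes, and rose in 1. Of 12 keratinocyte markers limma and edgeR each called 0 at P28, with 7 at p under 0.05 before adjustment by limma (3902 of all 14757 genes), and the markers summed to 572 to 715 in P28 Smo* and 1096 to 1324 in P28 WT. Krt14, a defining keratinocyte marker, was at 0 in P28 Smo* replicate 3 and at most 120 in P28 WT. Of 5 hair matrix and shaft markers tested, limma called 1 lower in P28 Smo* (Krt71, -4.39, adjusted p = 0.0301). Of 4 Schwann markers tested it called 1 lower (Cdh19, -3.37, adjusted p = 0.00291). Of 8 sheath and smooth muscle markers 1 was lower (Itga8, -1.56) and 1 higher (Cnn1, 1.21). The part of these markers in the FGF results was not tested.

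The rest of the pathway was read from fixed lists. Of 12 other secreted ligands, 4 passed the filter on low values, and limma and edgeR each called 0 between genotypes at either age. Over all genes limma called 0.696% at P20 and 8.9% at P28. Before adjustment 1 of the 4 had a limma p under 0.05 at each age. Over all genes 1669 of 14645 did at P20 and 3902 of 14757 at P28. Fgf9, a ligand of the mesenchymal receptor forms, read 91.6, 51.0 and 67.5 in P20 WT and 22.2, 15.4 and 31.3 in P28 WT, and fell by 1.58 on the log2 scale (limma adjusted p = 0.0318). P28 Smo* read 40.8, 38.9 and 122, and the Fgf9 interaction was 2.88 (adjusted p = 0.0369). With no filter on low values limma called neither the fall in WT (adjusted p = 0.0546) nor the interaction (0.0572). The fall in WT was also not called without P20 WT replicate 1 or 3 or P28 WT replicate 1 or 2 (adjusted p up to 0.106). The interaction was also not called without any 1 of the WT libraries or P20 Smo* replicate 1 or 2 (up to 0.0894). Of the 4 intracellular FGF homologues, which are not secreted, Fgf13 fell (-0.70) and Fgf11 rose (0.64) in WT between the ages, calls lost in 4 and 11 of the 18 alternatives. Over all genes 13.5% rose and 11.9% fell in that WT comparison.

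Of 10 other receptors and coreceptors, 9 were tested. In P28 Smo* 2 of them fell, against 4.85% of all genes: Flrt1, a membrane protein that binds FGF receptors (-2.37, SE 0.31, limma adjusted p = 0.00336), and Fgfrl1, a receptor without a kinase (-0.95, SE 0.23, adjusted p = 0.0392). Fgfr4 rose in P28 Smo* (1.06, SE 0.27, adjusted p = 0.0456), against 4.05% of all genes. In WT the latter pair had moved the other way between the ages, with Fgfrl1 higher by 1.66 (adjusted p = 0.000204) and Fgfr4 lower by 1.42 (adjusted p = 0.00143). Over all genes 13.5% were higher and 11.9% lower there. The P28 calls of Fgfrl1 and Fgfr4 ended without any 1 of the P28 WT libraries or P28 Smo* replicate 1, with adjusted p from 0.0662 to 0.145 and from 0.0736 to 0.153. The interaction called Flrt1 (-1.86, adjusted p = 0.0276), where 4.72% of all genes were called. That call was lost without P20 WT replicate 2 (0.0662) or 3 (0.0640), P20 Smo* replicate 2 (0.0610) or 3 (0.0655), P28 WT replicate 2 (0.0662) or 3 (0.0780), or P28 Smo* replicate 1 (0.0623). Flrt1 also fell between the ages in Smo* (-1.40, limma adjusted p = 0.0293), a call lost in 3 of 18 alternatives. Over all genes 1.47% were called lower there.

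Of 10 adaptors and relays, 1 was called in P28 Smo*, where 8.9% of all genes were: Gab1, a docking protein, rose (0.93, SE 0.17, limma adjusted p = 0.0149). That call was lost without P28 WT replicate 1 (0.0551), 2 (0.0504) or 3 (0.0653). In WT between the ages Plcg1 (0.73), Cbl (0.35) and Frs2 (0.27) rose and Sos2 fell (-0.67), against 13.5% higher and 11.9% lower over all genes. The Cbl and Frs2 calls were lost in 5 and 11 of the 18 alternatives. Plcg1 was called in the limma interaction (-0.65, adjusted p = 0.0358), where 4.72% of all genes were called. Sos2 also fell between the ages in Smo* (-0.63, adjusted p = 0.0459), where 3.46% of all genes were called. These calls were lost in 9 and 12 of the 18 alternatives. The enzymes that build or trim heparan sulfate, which FGFs need to bind their receptors, numbered 13. In WT 8 rose and 2 fell from P20 to P28, against 13.5% higher and 11.9% lower over all genes, among them Extl3 (0.73), Hs6st2 (1.38), Ndst1 (0.52) and the sulfatase Sulf2 (-1.08). In P28 Smo* Hs3st3b1 fell by 2.51 (adjusted p = 0.00260) and Extl3 by 0.66 (adjusted p = 0.00768), and Hs6st2 rose by 1.36 (adjusted p = 0.0107). Over all genes 4.85% fell and 4.05% rose in P28 Smo*. Hs6st2 was also the 1 gene of the list called at P20 (1.88, adjusted p = 0.0225), where 0.696% of all genes were called. The P20 call was lost without P20 WT replicate 1 (0.0656), 2 (0.0931) or 3 (0.0559) or P20 Smo* replicate 2 (0.0649), and the P28 call without P28 WT replicate 2 (0.0548). In the limma interaction 2 of the 13 were lower, against 2.83% of all genes. They were Extl3 (-0.76, adjusted p = 0.0123), kept in all 18 alternatives, and Hs3st3b1 (-1.95, adjusted p = 0.0429), lost in 9 of them.

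The genes most like each member were those with the smallest root mean square difference of centred log2 profiles over the 12 libraries, among 12504 genes with a mean of at least 50. For Fgf7 these were Steap2 (0.36 on the log2 scale), Olfm2 (0.38) and H2-DMb1 (0.41), and for Fgf10 Hmgcll1 (0.30), Clec14a (0.32) and Slitrk5 (0.46). Steap2, a metalloreductase, read 6528 to 8514 in P28 WT and 1708, 2643 and 449 in P28 Smo*, so its replicate 3 is low as well. Nearest to Fgf5 were Iyd (0.80), Shisa3 (0.92) and Sfrp5 (0.98), and Iyd, an iodotyrosine deiodinase, read 4.75 to 27.1 in WT and 171 to 444 in Smo*. Nearest to Fgf23 were Nr4a2 (0.95), Nr4a3 (0.99) and Ccl2 (1.02). Fgf2 was nearest to Csad, Smad7 and Spred1 (0.24 each), Fgf18 to Itga11 (0.34), Ackr2 (0.37) and Pi16 (0.37), and Fgfr3 to Rap1gap2 (0.31), Ass1 (0.38) and Slc6a6 (0.38). For Fgfr1 they were Cacna2d1 (0.17), Eid1 (0.17) and Slit2 (0.18), and for Fgfr2 Slc19a1 (0.12), Tmem185a (0.13) and Dmac2 (0.13), genes whose levels hardly vary. These distances describe the 12 libraries, which share groups and depth, and carry no test.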

How the data were processed

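RNA of FACS-sorted dermal papilla cells was extracted by RNeasy Plus Micro kit, depleted of ribosomal RNA and made into strand-marking libraries (NEBNext Ultra Directional), per the labels' protocols. Per the submitters' processing notes the tools included Trimmomatic, TopHat2 (version 2), HTSeq and DESeq2, with mm10 and GRCm38.p4 as builds. The 2 deposited tables, 1 per age, give a normalized read count (unit: signal) per gene and library, for which the authors divided the counts of a library by its size factor. The evidence is in the numbers: dividing by the smallest step of a library gave whole reads, to within 0.01, for 100% of them, and the deposited mean equals the mean over all 12 libraries, so both tables share 1 normalization. The deposited log2 fold change and its error (WT over Smo*), the authors' test statistic (a score) and their p-values were used only where named. GENCODE (GRCm38) named 25639 of 25887 identifiers.

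Tests were run in limma 3.58.1 (R 4.3.3) on log2(value + 1) with a fitted variance trend, for genes with a mean of at least 10, and Benjamini-Hochberg adjustment at 0.05. Each age was fitted alone for Smo* against WT, and 1 fit of 12 libraries gave the interaction and the stage contrasts. The scripts were tested on simulated data. Alternatives were TMM, pseudocounts of 0.5 and 5, a minimum mean of 50 or none, the quasi-likelihood test of edgeR 4.0.16 on recovered reads, the authors' adjusted p-values, limma on 12 libraries, leaving out each library, and, for shares, the longest transcript. Members and lists were chosen with earlier results of these data known. Named were the 9 genes, up to 4 called genes per pathway list and comparison by adjusted p, Smo, Gli1, Ptch1 and Hhip, and the 3 genes most like each member. Genes outside that rule (Kl, Krt14, Spred3 at P28, Dusp6, Egr1, single markers) were named after their values were seen.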

Additional observations from a re-analysis of the deposited data

Results flagged for a closer look

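Fgf23 differed in its Smo* effect between the ages. The effect at P28 minus that at P20 was 5.42 on the log2 scale (SE 1.21, 95% interval 2.79 to 8.05, limma interaction over 12 libraries, adjusted p = 0.0277). The call was lost in 7 of 18 alternative settings: by edgeR (4.67, adjusted p = 0.0614) and without any 1 of 6 libraries (adjusted p up to 0.0758). Its Smo* effect was -1.46 at P20, where the Smo* libraries ran from 8.21 to 177. Over the alternatives that P20 effect ran from -2.68 to -0.36, the latter from the authors' own fit, and it was -0.54 without P20 Smo* replicate 3. At P28 the Smo* effect was 3.95, and every Smo* library was above every WT library. In the P28 fit Fgf23 passed the filter only through the Smo* libraries (P28 WT mean 5.96), so a difference was built into the value of 3.95. Age changes together with sex, and label stage changes together with genotype at P28 (WT Anagen VI, Smo* anagen I-III). The age, sex, stage and genotype parts of this difference therefore cannot be told apart.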

How the results depend on the processing

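The 95 results on single genes were recomputed in 1550 settings, of which 1374 kept direction and call, 144 lost a call, 19 gained one and 13 turned sign. TMM scaling moved the median of all genes by less than 0.1 on the log2 scale. Counts of called genes moved by over 1.5 times with the authors' adjusted p (342 at P20 in place of 102, and 2880 at P28 in place of 1313) and with limma on 12 libraries at P28 (2058). The authors' p called 1 of the 9 genes at P20 (Fgf5), edgeR called 0 in the interaction and 1 between the ages in Smo*. Leaving out 1 library gave 8 to 129 calls at P20 (0 to 1 of the 9), 461 to 1619 at P28 (3 to 6), 254 to 922 in the interaction (0 to 2), 2336 to 4423 between the ages in WT (3 to 3) and 49 to 1049 between the ages in Smo* (0 to 2). All sign changes came from leaving out 1 library, for effects that were not called. The ranges were -0.46 to 0.51 for Fgfr3 at P20, -0.23 to 0.29 for Fgf18, -0.055 to 0.48 for Fgfr1 and -1.23 to 0.0024 for Hhip at P28. They were -0.45 to 0.087 for the Fgf2 interaction, -0.36 to 0.18 for Fgf2 and -0.0097 to 0.20 for Fgfr2 in WT, and -0.028 to 0.50 for Fgfr1 and -0.33 to 0.0089 for Fgfr2 in Smo*. Of 36 shares, 10 moved by over 1 SD with the longest transcript as length. The cause of these changes was not tested. Depth limits Fgf5 in WT and Fgf23 in P28 WT, where single reads set the level. No paired analysis was possible because groups share no replicate number: each title holds an unexplained number of its own.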

Other observations

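The balance of the papilla ligands differed among groups. The ratio of Fgf10 to Fgf7 normalized counts was 1.87, 1.78 and 2.02 in P20 WT and 1.26, 1.20 and 1.39 in P28 WT. It was 0.893, 1.55 and 1.61 in P20 Smo* and 0.815, 0.998 and 0.770 in P28 Smo*, so each Smo* library was below each WT library of its age. Replicate 3 of P28 Smo*, which stands apart in the levels of both genes, had a ratio near those of its group. The pattern was noticed in the data and carries no test.

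Sulf1, a sulfatase that trims heparan sulfate, rose from P20 to P28 in Smo* (log2 fold change 2.12, limma adjusted p = 0.0254). P28 Smo* libraries read 15519, 19294 and 3931 against 4643 to 5328 in P28 WT, and P20 Smo* read 2274 to 2631. P20 WT read 2052 to 2824, so in WT the ages did not overlap either, though Sulf1 was not called there. That WT test took its variance from all 12 libraries. The SD of Sulf1 was 8006 in P28 Smo*, against 386 in P20 WT and 344 in P28 WT, so the missing call says little about WT. The call was lost without P20 Smo* replicate 1 (0.0693) or 3 (0.0867) and without P28 Smo* replicate 1 (0.0882) or 2 (0.0597). Hs3st1, a sulfotransferase of the same list, rose in Smo* as well (2.30, adjusted p = 0.0310). That Smo* call ended without any 1 of 5 Smo* libraries, with adjusted p from 0.0508 to 0.0992. Hs3st1 was also called higher from P20 to P28 in WT (1.495, limma adjusted p = 0.0415). It read 155 to 193 in P20 WT and 424 to 635 in P28 WT, so its rise was not confined to Smo*.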
